A study of Mus musculus with 38 samples.

Results

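Brain-only SATB1 sites outside base-unpairing regions (BURs) are places where urea ChIP-seq recorded SATB1 in the mouse cortex on DNA that was not a peak when purified genomic DNA was offered to recombinant SATB1 in vitro. They were selected on the deposited peak lists by 1 rule, which took the peaks of brain replicate 1 on chromosomes 1 to 19 and X that shared no base with a BUR, at least 1 bp with a peak of brain replicate 2, and none with any of the urea peaks of thymocytes and skin. The rule found 11228 sites among 117870 peaks, or 9.53% of the list. The 11 lists of the series that were analysed held 698638 peaks in all. Being off BURs, being in both brain lists and being absent from the other tissues were therefore given by the selection and are not results.

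SATB1 is a nuclear protein that organizes chromatin in thymocytes, in basal cells of the epidermis and in subsets of neurons, cortical interneurons among them. BURs are the DNA segments for which it is known. They hold runs in which 1 strand carries mixed A, T and C without G, called ATC stretches, and such DNA tends to unpair under superhelical strain. Urea ChIP-seq spins crosslinked chromatin through urea before the precipitation, so that proteins held on DNA only through other proteins are stripped off, while standard ChIP-seq keeps them. A peak off a BUR in urea ChIP-seq is thus a place where SATB1 contact was recorded without a called peak in the in vitro map. That map is a single list, labelled as made with low SATB1 protein. In vitro signal below its peak threshold was not measured, so weaker in vitro binding at these places remains possible.

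Every ChIP library used came from C57BL/6 mice wild-type for Satb1 (Satb1+/+), and all 6 urea SATB1 libraries were made with the home-made antibody 1583D. The 2 brain libraries were made from cell suspensions of the cortex, with labelled ages of 5 and 6 weeks and labels of 10 and 12 cycles. The accompanying protocol gives postnatal day 13 for them instead. The 2 thymocyte and 2 skin libraries, the latter of epidermal keratinocytes, are labelled postnatal day 13. The study's methods give other ages for brain and skin. The standard SATB1 and CTCF libraries are labelled postnatal day 13 as well, although the titles of standard replicate 1 and of the thymocyte CTCF library give 6 weeks. Standard SATB1 ChIP-seq of thymocytes (2 lists, the replicate 1 library with a commercial SATB1 antibody and the other with 1583D), CTCF urea ChIP-seq of thymocytes and of skin (1 list each) and the BUR map (1 list, from thymus DNA bound in vitro) were used for comparison. Cortex holds glia and many kinds of neuron, and no expression data were used here, so the cells that carry these sites could not be checked against markers. Age and tissue cannot be told apart. Both brain libraries carry the same experiment number, and the labels do not say whether their chromatin was prepared separately, so the spread between them may be technical.

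The brain lists stood apart from the others in size and format. They held 117963 and 109154 peaks, against 45049 and 38882 in thymocytes and 11210 and 10846 in skin. Their lowest −log10 q was 2.27 and 2.28, against 2.69 to 2.86 in the other urea SATB1 lists, and they named 22 sequences each, against 30 or 31. The part of these differences in what counts as brain-only was not tested beyond the alternatives with shorter brain lists. No list gives read counts. The study describes the totals of aligned reads in urea ChIP-seq as similar between cell types, and the depth of each list was not analysed here.

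The sequences at 4 sites are given as examples. Each is the 300-bp window around the peak summit, read from the plus strand of NCBIM37 (mm9), with every copy of the 5-base motif CTAAT, or of ATTAG on this strand, in capitals. That motif came out of a count of all 6-base sequences described below and was chosen after the sites had been examined. A site in an intron of Nlgn1 and a site on the X chromosome, both among the 10 strongest, the strongest site at a gene start and a site shared with CTCF are shown, followed by a brain-only peak that did lie on a BUR.
Intron of Nlgn1, chr3:25455070-25455369: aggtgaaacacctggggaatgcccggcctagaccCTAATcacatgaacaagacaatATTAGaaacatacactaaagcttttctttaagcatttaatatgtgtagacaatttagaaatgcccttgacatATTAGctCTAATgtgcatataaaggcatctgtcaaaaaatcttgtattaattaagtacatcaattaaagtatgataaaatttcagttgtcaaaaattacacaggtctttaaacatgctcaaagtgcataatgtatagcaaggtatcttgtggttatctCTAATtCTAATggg
Intergenic, X chromosome, chrX:70634852-70635151: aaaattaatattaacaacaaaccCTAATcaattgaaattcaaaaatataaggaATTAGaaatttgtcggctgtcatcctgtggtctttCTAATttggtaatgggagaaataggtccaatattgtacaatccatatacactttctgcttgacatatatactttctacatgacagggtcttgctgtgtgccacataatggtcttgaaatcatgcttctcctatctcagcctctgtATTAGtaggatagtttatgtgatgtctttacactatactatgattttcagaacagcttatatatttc
Gene start of Pttg1, chr11:43237255-43237554: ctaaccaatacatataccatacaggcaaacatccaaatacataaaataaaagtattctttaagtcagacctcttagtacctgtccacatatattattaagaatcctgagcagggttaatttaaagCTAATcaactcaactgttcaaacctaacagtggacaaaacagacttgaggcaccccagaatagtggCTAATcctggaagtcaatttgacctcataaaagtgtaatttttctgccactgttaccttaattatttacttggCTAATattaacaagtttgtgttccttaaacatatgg
Shared with CTCF, chr13:81001264-81001563: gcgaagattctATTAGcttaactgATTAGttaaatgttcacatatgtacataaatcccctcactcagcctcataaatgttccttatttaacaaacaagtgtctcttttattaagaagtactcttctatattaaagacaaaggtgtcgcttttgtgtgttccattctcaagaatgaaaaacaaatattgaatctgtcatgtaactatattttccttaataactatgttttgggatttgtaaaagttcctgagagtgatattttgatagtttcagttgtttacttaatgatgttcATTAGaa
Brain-only peak on a BUR, chrX:17709060-17709359: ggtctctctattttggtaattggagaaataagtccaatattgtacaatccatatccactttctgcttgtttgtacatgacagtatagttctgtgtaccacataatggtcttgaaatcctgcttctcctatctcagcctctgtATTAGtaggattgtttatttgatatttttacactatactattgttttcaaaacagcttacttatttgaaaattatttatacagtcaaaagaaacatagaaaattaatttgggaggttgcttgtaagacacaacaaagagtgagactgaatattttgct
The Nlgn1 window held 6 copies, the most of the 10 strongest sites. The 4 windows off BURs shown here all held at least 3 copies, as did only 33.9% of all sites. They are therefore richer in the motif than most, and 1005 sites (8.95%) held no copy. The X chromosome pair was chosen for display after their resemblance was seen. A local alignment joined 208 bases of the 2 windows, of which 186 (89.4%) were identical, with 10 gap columns. It was the highest identity of 9 such pairs on the X chromosome, and the other 8 reached 71.0 to 79.7% with 78 to 150 gap columns. The window off BURs held 4 copies and the window on a BUR held 1. Overlap with repeat families was not measured, for this pair, the other sites or the tiles.

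Of all peaks off BURs, 12900 of 31858 in brain replicate 1 (40.5%) and 10524 of 29641 in replicate 2 (35.5%) were in that list alone, and the rule left these out. With the lists exchanged, so that peaks of replicate 2 were the base, the rule found 11348 sites, which by its construction were largely the same places. Fold enrichment, which sets the summit signal against the background around it in one library, had a median of 5.56 in replicate 1 (5th to 95th percentile 3.83 to 9.78) and 5.74 in replicate 2 (3.98 to 9.94). The 2 values of a site lay within a factor of 1.5 of each other at 86.6% of sites and within a factor of 2 at 98.8%. Pearson's r of the log2 values was 0.55 over the 11228 sites, which share 2 libraries. Only 216 sites reached a fold enrichment of 10 in both lists.

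**Figure D1:**
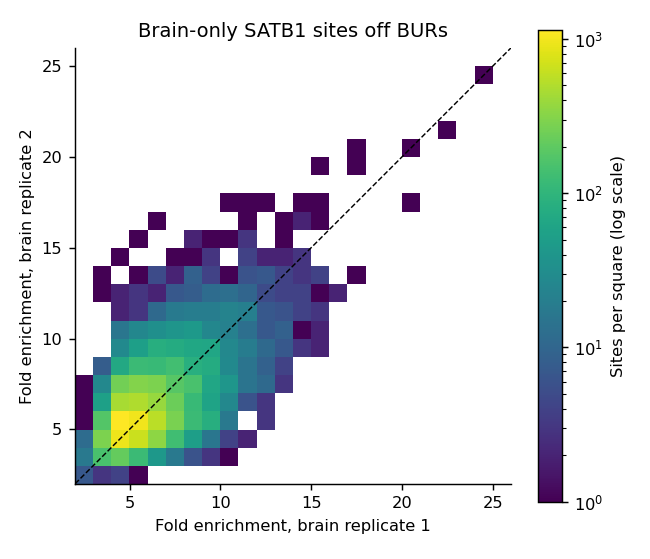
Fold enrichment of the 11228 brain-only sites off BURs in brain replicate 1 (horizontal axis) and replicate 2 (vertical axis), as the number of sites per square of 1 by 1 unit, with colour on a log scale and the dashed line marking equality. Most sites sit near the medians of 5.56 and 5.74, and few reach 10 in both.

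These sites were weak to moderate peaks. Their median fold enrichment of 5.65 ± 0.13 (SD, n = 2 lists) stood beside 7.15 in replicate 1 for the 37140 brain-only peaks on BURs, 7.09 for the 7730 brain peaks off BURs that thymocytes or skin shared, and 12.7 for the 35529 shared peaks on BURs. Of the peaks in the lowest quartile by fold enrichment 13.7% met the rule, in the next quartiles 15.3% and 8.18%, and in the highest quartile 0.986%, or 293 peaks. Peaks off BURs of any kind made up 46.6% of the lowest quartile and 4.71% of the highest in brain replicate 1. In the thymocyte lists that share ran from 36.7% to 8.04% and from 33.6% to 7.07%, and in the skin lists from 30.2% to 12.6% and from 28.9% to 11.8%. In all 6 lists the strongest quartile held the fewest peaks off BURs.

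**Figure D2:**
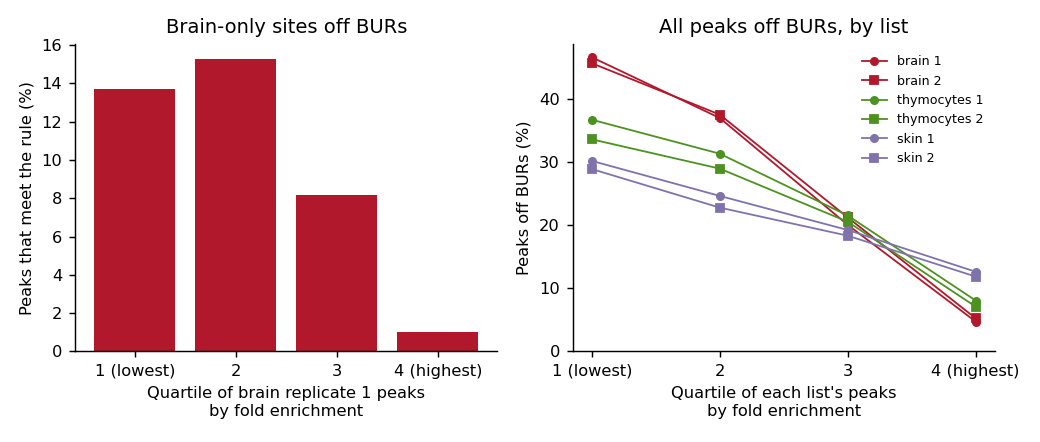
Left, the share of brain replicate 1 peaks that met the rule, in percent, for each quartile of the list by fold enrichment. Right, the share of peaks off BURs in percent for each quartile of each of the 6 urea SATB1 lists (circles replicate 1, squares replicate 2). The highest quartile of brain replicate 1 held 0.986% such sites, and every list fell from its lowest to its highest quartile.

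The number of sites fell when the brain lists were cut to their strongest peaks, which changes list length and peak strength together. When both were shortened to their 44920 strongest peaks by q, the size of the longer thymocyte list, 456 of the 11228 sites were left, 1.02% of the peaks kept. Raising the threshold to a −log10 q of 5 in both brain lists left 11002. Widening every BUR, thymocyte and skin peak by 500 bp left 9796.

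In base composition the sites lay between BURs and the genome at large. Their median A+T content was 66.0% in both lists, against 71.7% for brain-only peaks on BURs, 63.7% for the shared peaks off BURs and 58.3% for all 8518777 consecutive 300-bp tiles of chromosomes 1 to 19 and X. At least 65% A+T was found at 62.5% ± 0.17 of sites (SD, n = 2), against 95.2% of the brain-only peaks on BURs in replicate 1, 40.6% of the shared peaks off BURs and 18.3% of tiles. Both lists give largely the same sites, so the SDs here are not replicate precision. An ATC stretch, counted as 25 bp or more without G or without C, was present at 79.4% ± 0.37 of sites (SD, n = 2), against 92.7%, 76.1% and 60.8%. Tiles in the interquartile range of the sites' A+T content (63.3 to 68.7%) held one in 80.6% of cases, about the share at the sites. At 1272 sites (11.3%) the window had neither 65% A+T nor an ATC stretch. The difference in median A+T content from brain-only peaks on BURs was −5.67 percentage points in both lists, and from the shared peaks off BURs it was 2.33 points in both. With 2 lists the exact two-sided sign-flip test cannot give a p below 0.5, and it gave 0.5 here and for every such difference between sets below.

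**Figure D3:**
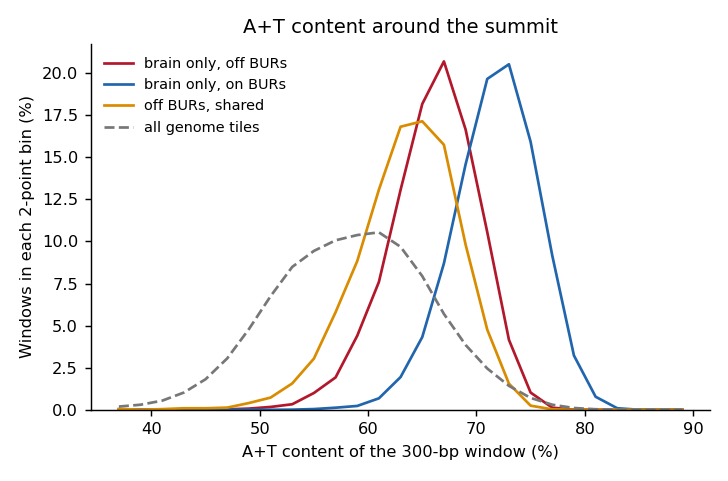
A+T content of the 300-bp window around the summit in percent (horizontal axis) and the percentage of windows in each bin of 2 points (vertical axis), for 3 sets of brain replicate 1 peaks and for all genome tiles (dashed). The brain-only sites off BURs (median 66.0%) sit between the shared peaks off BURs (63.7%) and the brain-only peaks on BURs (71.7%).

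Sequences with the word CTAAT were more frequent at the sites than in tiles of like composition, as they were in other brain peaks. Among the 2080 different 6-base sequences, a sequence and its reverse complement counted as 1, 1453 occurred at 5% of sites or more. Ranked by their share at the sites over their share in tiles of the same A+T range, ATTAGC led with 35.7% of sites against 11.9% of tiles. CTAATA followed with 60.7% against 20.6%, ACTAAT with 48.0% against 17.1% and CATTAG with 36.1% against 13.6%. The shared peaks on BURs held CTAATA in 65.8% and ACTAAT in 52.8% of windows, more than the sites did. Of the first 8 sequences 6 held CTAAT or its complement ATTAG, and of the first 15 sequences 7 did. All 15 held the shorter word TAAT or its complement ATTA, among them ATTAAT with 48.1% of sites against 18.2% of tiles. The ranking therefore does not single out CTAAT from TAAT, which was not counted by itself. With the brain lists exchanged the same 15 sequences came first. The ranking was made on the sites it describes, and overlapping words count the same bases more than once.

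CTAAT on either strand was present at 91.0% of sites, with 2.07 copies per window on average, against 51.8% and 0.730 copies in tiles of the same A+T range and 40.6% and 0.537 in all tiles. Brain-only peaks on BURs held it in 85.4% of windows with 1.70 copies, although they were richer in A+T. The shared peaks off BURs held it in 91.8% with 2.29 copies, the shared peaks on BURs in 89.7% with 2.12 copies and all brain replicate 1 peaks in 87.1% with 1.88 copies. The motif was thus common in brain SATB1 peaks on and off BURs. At least 3 copies were found at 33.9% of sites, 22.7% of the brain-only peaks on BURs, 41.1% of the shared peaks off BURs, 35.3% of the shared peaks on BURs and 3.83% of tiles of the same A+T range. The share with CTAAT was 5.65 and 5.53 percentage points above that of brain-only peaks on BURs in the 2 lists, and 0.788 and 0.950 points below that of the shared peaks off BURs.

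The copies gathered at the summit. Within 20 bp of it the sites held 11.6 copies per kb, against 2.02 per kb at 400 to 500 bp, a ratio of 5.76. Brain-only peaks on BURs had 8.38 and 2.19 (3.82), and the shared peaks off BURs had 17.4 and 1.85 (9.41). The density at the outer distance was close to the mean of all tiles for each of the 3 sets. More copies went with somewhat higher medians. The median of the mean fold enrichment was 5.53 at the 1005 sites without a copy, 5.64 with 1, 5.68 with 2, 5.86 with 3 and 6.09 at the 1400 sites with 4 or more, while the median A+T content stayed between 65.7% and 66.3%.

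**Figure D4:**
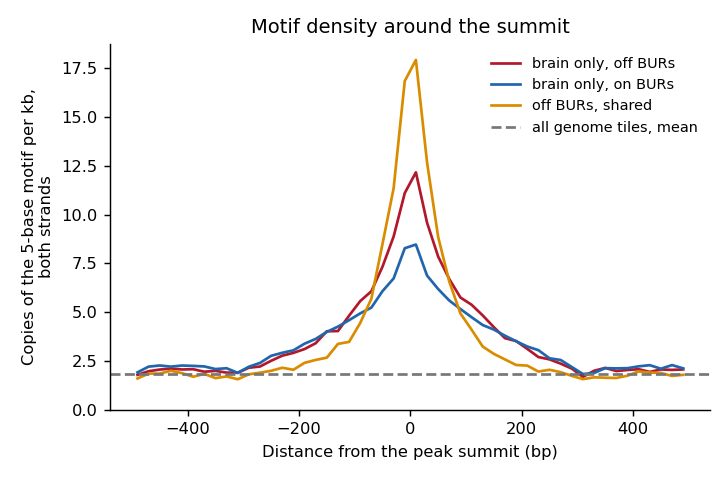
Copies of the 5-base motif per kb on both strands (vertical axis) against distance from the peak summit in bp (horizontal axis), in bins of 20 bp, for 3 sets of brain replicate 1 peaks, with the mean of all genome tiles dashed. The brain-only sites off BURs rise from 2.02 copies per kb at the edges to 11.6 at the centre, between the 8.38 of brain-only peaks on BURs and the 17.4 of shared peaks off BURs.

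Other words were counted too, each searched on both strands. Of these only TAATTA was set against tiles of the same A+T range, and like CTAAT it was more frequent at the sites. The rest were set against all tiles, which were poorer in A+T (median 58.3% against 66.0%). The part of base composition in those differences was not tested. TAATTA, the core that many homeodomain proteins bind and which can overlap CTAAT by 4 bases, was found at 42.1% of sites, 49.3% of brain-only peaks on BURs, 45.4% of shared peaks off BURs, 10.6% of all tiles and 16.8% of tiles of the same A+T range. AATATATTT, the nucleation sequence of a well studied BUR, was at 2.46% of sites, 6.51% of brain-only peaks on BURs and 1.19% of tiles. ATATATAT was at 2.49% of sites and 2.85% of tiles, and a run of 8 A was at 11.7% and 12.3%. The repeats CACACACA (6.47% against 8.75%) and GAGAGAGA (2.70% against 5.12%) were less frequent at the sites than in tiles. TGANTCA, the AP-1 site, was at 9.82% of sites and 8.84% of tiles, and CAGATGG, a site of neuronal bHLH proteins, was at 3.71% and 5.90%. A match in a window is a description of the letters there and not of binding by any of these factors.

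The median distance to the nearest BUR was 2628 bp, 24.4% of sites lay within 1 kb of one and 1.83% within 100 bp, while 20.1% of all tiles, those on BURs included, had a BUR within 1 kb of their centre. Sites of the weakest quartile by mean fold enrichment had a BUR within 1 kb in 30.2% of cases and those of the strongest quartile in 21.8%. At 1828 sites (16.3%) the nearest BUR was over 10 kb away. The median distance to a SATB1 peak of thymocytes or skin was 14.6 kb, and 433 sites (3.86%) lay within 1 kb of one. For brain-only peaks on BURs in replicate 1 that median was 11512 bp. The BUR list held 232068 peaks on these chromosomes and the longest thymocyte list 44920, so distances to the 2 kinds of peak are not comparable. At the border of the rule, 2 sites touched a BUR without sharing a base and another lay 1 bp away. The touching sites were chr17:76940361-76940810, with fold enrichments of 3.60 and 4.42 in replicates 1 and 2, and chr6:46118232-46118600 in an intron of Cntnap2, a neuronal adhesion gene, with 4.24 and 4.40. Just outside it, the peak chr2:64005468-64005915 shared 1 bp with a BUR and had 5.92 and 5.88, chr4:85900305-85900747 shared 1 bp and had 5.18 and 5.08, and chr9:116331360-116331777 shared 1 bp and had 5.75 and 5.52.

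By their summits 61.2% were intergenic, 37.5% intronic and 1.40% exonic in protein-coding genes of the GENCODE vM1 annotation, against 61.2%, 35.8% and 3.02% of tiles. Brain-only peaks on BURs were intronic in 30.6% of cases, a difference of 6.81 and 6.68 percentage points in the 2 lists. The density was uneven and ran from 2.68 sites per Mb on the X chromosome and 2.81 on chromosome 7 to 5.53 on chromosome 3. As a share of all brain replicate 1 peaks, the sites were 9.57% on chromosome 7 and 9.45% on chromosome 3, near the 9.53% of the list. That share ran from 8.25% on the X chromosome to 11.1% on chromosome 13. Per bin of 1 Mb, bins without a gene start held 6.90 sites on average and 31.4 brain-only peaks on BURs, and bins with 15 or more gene starts held 2.18 and 5.75. The sites thus made up 18.0% of the brain-only peaks, on and off BURs together, in bins without a gene start, 28.9% in bins with 5 to 14 and 27.5% in bins with 15 or more. Over 2565 bins, Spearman's rho of the number of sites was 0.62 with the number of BURs and −0.52 with the number of gene starts, as a description of bins that share chromosomes and base composition. The densest bin, chr1:23000001-24000000, held 17 sites and 17 brain-only peaks on BURs and touched Ogfrl1, B3gat2 and Smap1.

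Of the 10 strongest sites 7 were intergenic, and not every one of the 10 is described here, the strongest among those left out. The site chrX:53357985-53358313 had fold enrichments of 22.3 and 21.1 in the 2 lists, and chr17:36621359-36622065 had 20.3 and 20.1, 22.4 kb from H2-M10.4, a class Ib histocompatibility gene. The site chr3:9012703-9013011 had 17.3 and 20.3 and lay 52 bp from a BUR. chrX:5136000-5136474 had 17.6 and 19.9 and lay 21.0 kb from one. chr15:62459698-62460223 had 15.7 and 19.8, with the nearest protein-coding gene 638 kb away. chrX:70634777-70635097 had 14.8 and 16.8. The 10 strongest sites had at least 14.8 in both lists, above the 95th percentiles of 9.78 and 9.94.

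Of the 10 strongest sites, 3 lay in introns. In Zeb1, which encodes a zinc-finger repressor, the site chr18:5611735-5612046 had 20.3 and 17.3 in the 2 lists. In Nlgn1, which encodes the postsynaptic adhesion protein neuroligin 1, the site chr3:25454874-25455494 had 15.4 and 17.3, with a BUR 461 bp away. In Srgap2, a regulator of dendritic spine growth, the site chr1:133378113-133378848 had 15.0 and 17.6. The nearest thymocyte or skin SATB1 peak lay 24.1 kb from the site in Zeb1, 6.35 kb from that in Nlgn1 and 8.09 kb from that in Srgap2. The distances in Nlgn1 and Srgap2 were below the median over all sites, and the lack of overlap was set by the rule.

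Gene starts were a small part of the set. A start of a protein-coding gene lay within 1 kb of the summit at 128 sites, or 1.14%, against 0.956% of all brain replicate 1 peaks, so the share was near that background, and against 2.31% of tiles. Of these 128 windows 110 held CTAAT. The strongest was chr11:43237175-43237671, 916 bp from the start of Pttg1, the gene of securin, with fold enrichments of 14.6 and 14.7. The site chr3:84668026-84668523, 208 bp from a start of Fbxw7, a ubiquitin ligase subunit, had 14.8 and 11.3. The values for chr4:14723435-14723880 near Lrrc69 were 9.78 and 15.7, and for chr11:4340108-4340587 near Hormad2 they were 11.7 and 13.0. None of these 4 sites overlapped a CTCF or standard SATB1 peak. The fifth, chr17:15701664-15702170 near Prdm9, had 12.2 and 8.82 and overlapped a standard SATB1 peak of replicate 1.

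CTCF, the zinc-finger protein that marks many domain borders, was seldom found at these sites. A CTCF urea peak of thymocytes or skin overlapped 65 sites, or 0.579%, against 0.613% of all brain replicate 1 peaks, which is near that background. Among the shared peaks off BURs the share was 1.63%, 1.05 and 1.10 percentage points higher in the 2 lists. Those peaks were selected for a SATB1 peak in thymocytes or skin, the tissues of the CTCF lists, and the sites for none. The comparison is therefore not independent of the rule. No CTCF list of brain was used, so CTCF in the cortex itself was not measured here. Of the 65 sites 64 overlapped a skin peak, 32 a thymocyte peak and 31 both, and 56 of the 65 windows held CTAAT. The strongest was chr12:15612669-15613094, with 11.5 and 15.2 and a skin peak only, and it held no copy of the motif. At chr10:67321872-67322488, 26.6 kb from Zfp365, the values were 11.8 and 11.9, and at chr13:81001233-81001689, 21.2 kb from Arrdc3, they were 10.7 and 11.0. Both of these were CTCF peaks in thymocytes and skin.

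Standard SATB1 ChIP-seq peaks of thymocytes overlapped 58 sites, or 0.517%, against 0.626% of all brain replicate 1 peaks. Both standard replicates had a peak at 19 sites. The shared peaks off BURs stood at 1.59%, again a comparison that is not independent of the rule, which used thymocyte peaks. The strongest of the 19 was chr3:141957608-141958163 in an intron of Pdlim5, a scaffold protein gene, with urea fold enrichments of 11.7 and 8.40, and CTCF was there in thymocytes and in skin. The site chr2:79352291-79352798, 55.6 kb from the start of Neurod1, the gene of a neuronal bHLH factor, had 10.7 and 7.89 and was likewise a CTCF peak in both tissues. The site chr1:61011739-61012181, 22.8 kb from Icos, a T-cell costimulator gene, had 5.66 and 9.74. These brain sites were thus standard peaks in thymocytes, while their absence from the urea SATB1 lists there was set by the rule. Of the 58 sites with a standard peak, 21 also had a CTCF peak.

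Protein-coding genes held 4362 sites, 3104 of them in genes of 100 kb or longer, while 28936 of 40322 brain peaks of any kind in protein-coding genes lay in the long ones. The sites made up 10.7% of the brain peaks in long genes and 10.8% of those in all protein-coding genes. In all, 2475 of 22350 protein-coding genes held at least 1. Genes of 100 kb or longer held 5.22 sites per Mb, against 4.39 in all protein-coding genes and 4.25 over the chromosomes. The gene with most sites was Ptprd, a receptor phosphatase of synapses, with 23 in 2271 kb (10.1 per Mb), followed by Csmd3 with 22 (18.2 per Mb) and Lingo2 with 21 (16.9 per Mb). Lrrc4c, the gene of the netrin-G ligand NGL-1, held 20 (15.2 per Mb). Lrp1b held 18, Kcnip4 17, Nrxn3 16, and Erbb4 and Csmd1 15 each. Nrxn3 encodes a presynaptic partner of neuroligins, and Erbb4 the neuregulin receptor of cortical interneurons. These genes held more brain-only peaks on BURs than sites off BURs, from 17 in Nrxn3 to 98 in Lrp1b. In Nrxn3 the counts were nearly equal, at 16 and 17, whereas in Erbb4 they were 15 and 69. Per Mb, the genes of 100 kb or longer that led were Sik2 with 34.4 (4 sites), Ebf3 with 33.1 (4 sites), Ahi1 with 31.3 (4 sites), Lekr1 with 30.3 (5 sites) and Tox3 with 29.7 (3 sites), each from few sites.

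Gene lists chosen by tissue and function varied in density. Cortical interneuron genes held 30 sites in 7 of 29 genes (8.99 per Mb of gene body), 15 of them in Erbb4 alone and 6 in Adarb2. Neuronal adhesion and guidance genes held 364 in 60 of 110 genes (7.55 per Mb), ion channels 96 in 35 of 168 genes (5.12 per Mb) and neurotransmitter receptors 72 in 33 of 101 genes (4.94 per Mb), beside 5.22 per Mb in all genes of 100 kb or longer. Among channels, Kcnip4, a potassium channel partner, led with 17 and Cacna2d1, a calcium channel subunit, held 8. Among receptors, the glutamate receptor gene Grm8 held 6. Thymocyte genes held 5 sites in 3 of 31 genes (2.82 per Mb), 2 each in Themis and Tox. No site fell in the 19 neuronal immediate early genes, the 17 glial and microglial genes or the 27 epidermal gene entries, which together span little sequence (0.290, 0.690 and 0.686 Mb). At the density of the chromosomes, 4.25 per Mb, such spans would hold few sites in any case. Olfactory receptor genes held 3 in 1087 genes (1.60 per Mb) and vomeronasal receptor genes 11 in 320 genes (3.04 per Mb), while brain-only peaks on BURs there numbered 29 and 88.

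The interneuron and adhesion lists were also rich in other brain peaks. Cortical interneuron genes held 77.9 brain peaks of any kind per Mb and adhesion genes 74.4, against 48.6 in genes of 100 kb or longer. As a share of all brain peaks, the sites made up 11.5% in interneuron genes, 10.1% in adhesion genes, 11.2% in ion channels and 7.79% in neurotransmitter receptors, against 10.7% in genes of 100 kb or longer. Thymocyte genes held fewer brain peaks of any kind (30.4 per Mb), and the sites were 5 of those 54, or 9.26%. Read against the other brain peaks, the interneuron, adhesion and channel lists were therefore near the share of all long genes, and the receptor list lay below it.

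**Figure D5:**
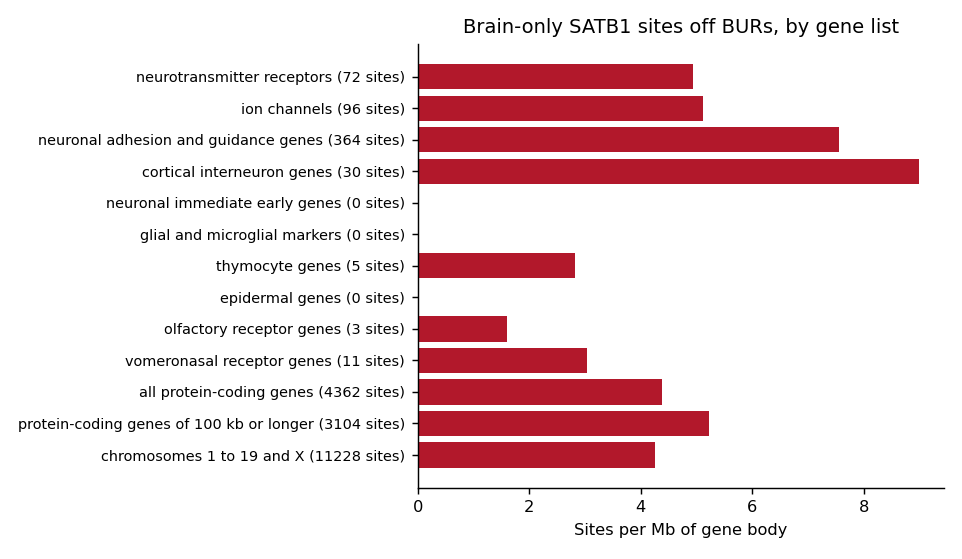
Brain-only SATB1 sites off BURs per Mb of gene body (horizontal axis) for each gene list, with the number of sites in parentheses and, in the bottom 3 bars, all protein-coding genes, those of 100 kb or longer and the whole chromosomes. Cortical interneuron genes (8.99) and neuronal adhesion and guidance genes (7.55) had the highest densities, and 3 lists held no site.

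Satb1 itself held 1 site. It lay in an intron at chr17:51910545-51910852, 3.00 kb from the nearest thymocyte or skin peak, with fold enrichments of 5.37 and 5.52 in the 2 lists. A second lay 51.8 kb from the gene at chr17:51823493-51823909, with 5.75 and 4.20. Gabra2 and Gabrg1, neighbouring genes of GABA-A receptor subunits, held no such site, though they held 7 and 6 brain-only peaks on BURs.

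Whether peaks off BURs differed between tissues in general was asked on all peaks off BURs of each of the 6 urea SATB1 lists. This is not independent of the rule, since being off BURs is a value it used and the 11228 sites are among the 31858 peaks off BURs of brain replicate 1. They made up 27.0% and 27.2% of the brain lists, 24.2% and 22.4% of the thymocyte lists and 21.5% and 20.4% of the skin lists. The brain lists were above the other 4 without overlap, by 4.99 percentage points on average. The exact two-sided permutation test gave p = 0.0667, the smallest that 15 arrangements allow, and 0.187 after Benjamini-Hochberg adjustment over 7 quantities. This order did not hold among the strongest peaks. Cutting a list by q changes its length and the strength of its peaks together, and the part of each was not tested. When every list was shortened to its 10611 strongest peaks by q, the share was 0.443% and 0.697% in brain, 7.19% and 7.47% in thymocytes and 20.9% and 20.4% in skin, and the difference reversed to −13.4 points (exact permutation p = 0.133). At that length the other differences between brain and the rest were 2.50 points in A+T content, 1.09 in the share with CTAAT, 1.48 in the share with an ATC stretch, 0.298 in the share near a BUR, 0.291 in the share at gene starts and −5.18 in the intron share. They were smaller than at full length except for the intron share, and the sign at gene starts turned. The brain values at that length rest on few windows, the 0.443% and 0.697% of peaks that were off BURs.

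The median A+T content of peaks off BURs was 65.3% and 65.0% in brain, 63.3% and 62.7% in thymocytes and 58.7% and 59.0% in skin, a difference of 4.25 points between brain and the rest (exact permutation p = 0.133, adjusted 0.187). CTAAT was present in 89.5% and 90.3% of the brain windows, 91.4% and 90.8% of the thymocyte windows and 60.3% and 61.1% of the skin windows. The brain and thymocyte values were within 2 percentage points of each other without overlapping, and the skin values were lower. With every list at its 10611 strongest peaks, the shares were 74.5% and 81.1% in brain, 92.8% and 91.8% in thymocytes and at most 61.1% in skin. Only 0.443% and 0.697% of the brain peaks kept were off BURs, so the brain shares there rest on few windows. The difference between brain and the other lists did not pass the test (exact permutation p = 0.467, adjusted 0.467). An ATC stretch was present in 78.0% of windows in both brain lists, 74.9% in both thymocyte lists and 67.5% and 67.8% in skin (exact permutation p = 0.133, adjusted 0.187). A gene start lay within 1 kb in 1.19% and 1.18% of brain peaks off BURs, 1.54% of the peaks in both thymocyte lists and 2.46% and 2.68% in skin (exact permutation p = 0.133, adjusted 0.187). A BUR lay within 1 kb in 22.3% and 22.7%, 20.5% and 20.3%, and 17.3% and 17.4% (exact permutation p = 0.133, adjusted 0.187). That distance is to the BUR map that the rule used, so this test is not independent of the rule either. The intron share differed little, with tissue means from 37.9% in skin to 39.0% in thymocytes and 38.0% ± 0.19 (SD, n = 2) in brain (exact permutation p = 0.333, adjusted 0.389).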

How the data were processed

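The authors mapped reads to NCBI37/mm9 with bowtie2 2.3.1 and called peaks per library with MACS2 2.2.7 (q-value threshold 0.01), according to the labels and the study's methods. Each deposited list gives per peak the fold enrichment, a ratio to local background, the −log10 p-value and −log10 q-value, a summit and a display score. The display score in the deposited lists was not used. Replicates were not pooled, and replicate numbers follow the labels. The lists give no counts, so only the spread between 2 lists is available. Of the sites, 99.3% shared a base with a site of the exchanged rule. The SDs given for the sites therefore compare largely the same places and are not a measure of replicate precision.

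Overlaps needed 1 bp. Windows of 300 bp around summits were read from NCBIM37, and genes from GENCODE vM1. Python 3.11.15, numpy 2.4.6, pandas 2.3.3 and numba 0.67.0 were used. The functions were tested on simulated data. Sets were compared by sign flips over the 2 brain lists, and tissues by exact permutation of 6 lists.

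The sites, gene lists and motifs were chosen with earlier results of these data known. The motif CTAAT was chosen from the sites themselves. The sites named are from the 10 strongest by mean fold enrichment, the strongest at gene starts and with CTCF or standard SATB1 peaks, those nearest a BUR, and those at Satb1, Gabra2 and Gabrg1. The genes named are those with most sites in all, per Mb and per list. Items of these rules that are not named are not reported here.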

Additional observations from a re-analysis of the deposited data

How the results depend on the processing

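With brain lists as short as the longer thymocyte list, 456 sites remained under the rule, with a median A+T content of 66.7%, CTAAT in 92.5% and a BUR within 1 kb in 28.9%. Asking for 50% of the peak to be covered gave 66.3% A+T and 31.1% near a BUR, widening the other peaks by 500 bp gave 13.8% near a BUR, and exchanging the brain lists gave 91.2% with CTAAT and 25.0% near a BUR. Leaving out 1 urea list at a time gave 11242 to 22680 sites, 65.7 to 66.0% A+T, 88.7 to 91.3% with CTAAT and 23.4 to 24.4% near a BUR. The highest numbers came without brain replicate 2 (22680) and without brain replicate 1 (20492), since fewer lists then had to agree. Alternatives added after seeing the data were sites over 1 kb from a BUR (65.7% A+T) and sites longer than the list's minimum peak length (66.3% A+T, 91.4% with CTAAT).

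Between tissues, shortening every list to 10611 peaks turned the difference of brain from the others to −13.4 points in the share off BURs and to 0.29 points in the share at gene starts. It brought the difference in A+T content from 4.25 to 2.50 points, in CTAAT from 14.0 to 1.09, in ATC stretches from 6.72 to 1.48 and near a BUR from 3.60 to 0.298, and moved that in introns from −0.53 to −5.18. The cause was not tested, and the brain values at 10611 peaks rest on the 0.443% and 0.697% of them that were off BURs. Leaving out 1 list at a time gave 4.41 to 5.70 points in the share off BURs, 3.50 to 5.06 in A+T content and 8.81 to 19.2 in the share with CTAAT. With a replicate block (labels permuted within replicate number) the differences stayed 4.99, 4.25 and 14.0 points, and the exact p was 0.111, 0.222 and 0.556. The numbers share no animal or date in the labels. No test of these designs could pass 0.05.

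The lack of counts and of a repeat annotation, the unequal list lengths, the single lists of CTCF and of the BUR map, and the age of the mice limit these results.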
